A study of Mus musculus with 6 samples.

Results

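The 8 genes described here encode fibroblast growth factor (Fgf) ligands and receptors. They were chosen by name, with earlier results of these data known. They are the ligands Fgf7, Fgf8, Fgf9, Fgf10, Fgf17 and Fgf20, and the receptors Fgfr1 and Fgfr2. Each had 1 probe set, so that 8 of the 25949 probe sets on the arrays are described and none of the 8 was without a row. The arrays measured total RNA of mammary buds from Eda-/- mouse embryos of B6CBA background at E13.5. Both groups therefore lacked the ligand ectodysplasin (Eda), a member of the tumor necrosis factor family. The control buds were kept for 4 h without added protein, and the treated buds were exposed for 4 h to recombinant Fc-Eda-A1, called Fc-Eda here. Each group had 3 biological replicates, and 1 replicate was a pool of about 20 buds from 5 to 6 embryos, whose buds were divided between control and Fc-Eda. The buds were dissected by hand and most, not all, of the surrounding mesenchyme had been taken away.

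Fgf ligands are secreted proteins that bind receptor tyrosine kinases together with heparan sulfate, and the activated receptors signal largely through the Ras and ERK pathway. Fgf7 and Fgf10 come from mesenchyme and act on the epithelial b isoform of Fgfr2, and Fgf10 and this isoform are needed for most mammary placodes to form. The subfamilies of Fgf8 with Fgf17 and of Fgf9 with Fgf20 signal mainly through c isoforms of the receptors, which mesenchymal cells typically express. The deposited table gives 1 value per gene and array, so that b and c isoforms are not separated in the values of Fgfr1 and Fgfr2.

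All values are on the log2 scale, where a difference of 1 is a doubling. The control array of replicate 1 stood apart from the others, with a median over all probe sets of 4.99, where the other 5 arrays had 4.80 to 4.83, and with an interquartile range of 2.59 instead of 2.81 to 2.96. Subtracting control from Fc-Eda left a median over all probe sets of -0.074 for replicate 1, 0.00048 for replicate 2 and 0.0085 for replicate 3. Members are therefore also given without pair 1. The level of 1 gene is not set against that of another, since probe sets differ in how strongly they bind their transcripts.

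In the paired fit of limma, which tests all 25949 probe sets together with the replicate number as a block, none of the 8 genes passed a q-value of 0.05. Over all probe sets the share called was 0%, so that the absence of calls was not particular to the Fgf genes. At an unadjusted p under 0.05, Fgf17 was higher after Fc-Eda, in a direction where 2.73% of all probe sets had such a p. Fgf9 and Fgfr2 were lower at the same p, as were 3.33% of all probe sets. Fgf7, Fgf10 and Fgf17 were higher with Fc-Eda in all 3 pairs, as were 13.2% of all probe sets. Fgf9 and Fgfr2 were lower in all 3 pairs, as were 15.3% of all probe sets. The 3 arrays of a group lay wholly above those of the other for Fgf17 alone among the 8 genes, where 3.98% of all probe sets had every Fc-Eda array above every control array. They lay wholly below for Fgf9 and Fgfr2, where the share over all probe sets was 5.11%. These counts depended on the scaling, and those by p also on the pairs used. Without pair 1, 2 or 3, the limma p of Fgfr2 was 0.101, 0.0675 and 0.226. That of Fgf9 was 0.0384, 0.0703 and 0.129. The p of Fgf17 stayed under 0.05 each time, and that of Fgf20 was 0.0364 without pair 1. Shares of all probe sets at that p are not given for these fits. With each array centred on its median, Fgf17 alone had an unadjusted p under 0.05, and the shares of all probe sets were 3.78% higher and 2.15% lower. Every Fc-Eda array was then above every control array for Fgf17 and Fgf20, where the share of all probe sets was 5.6%, and below for Fgfr2 alone, where it was 3.36%. This centring shifted pair 1 upward, to a median difference of 0.11 over all probe sets. Fgf20 then joined the genes higher in all 3 pairs, where the share of all probe sets was 17%. Fgf9 and Fgfr2 stayed lower in all 3 pairs, where it was 9.54%. After quantile normalization or cyclic loess the genes with an unadjusted p under 0.05 were those of the deposited values. At that p, 3.92% of all probe sets were higher and 3.47% lower after quantile normalization, and 4.07% and 3.45% after cyclic loess. Fgfr1 then joined Fgf9 and Fgfr2 among the genes lower in all 3 pairs, as were 14.7% of all probe sets after quantile normalization and 14.5% after cyclic loess. These 3 genes also had every Fc-Eda array below every control array, where the shares were 4.82% and 4.61%. The median of the 8 mean differences was 0.031, where that over all probe sets was -0.024.

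**Figure D1:**
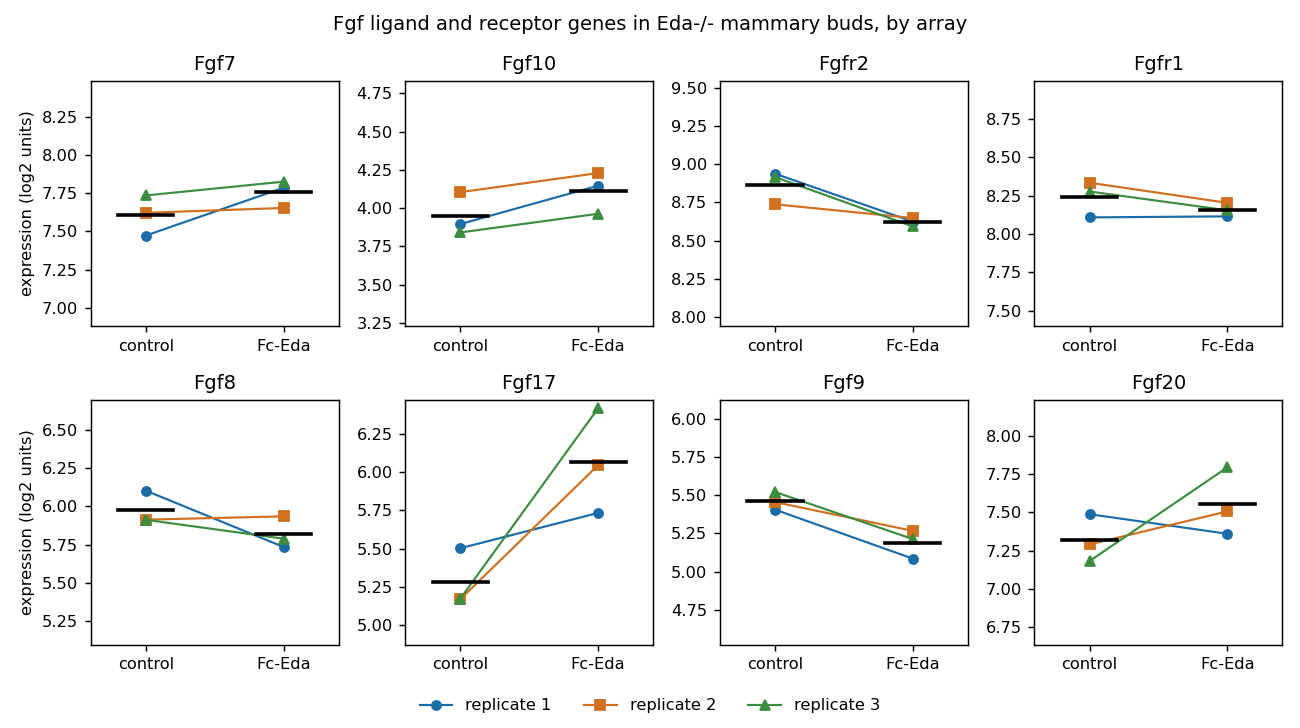
Log2 expression of each of the 8 genes (vertical axis, the same span of log2 units in every panel) in control and Fc-Eda buds (horizontal axis). Each line joins the 2 arrays of 1 replicate, and black bars are the means of 3 arrays. Fgf17 has the steepest lines, and the lines of Fgf20 run in both directions.

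Fgf17 showed the largest difference among the 8 genes. Fgf17 (ENSMUSG00000022101_at), best known from the developing midbrain and cerebellum, was at 5.50, 5.17 and 5.17 in the control arrays of replicates 1, 2 and 3 and at 5.73, 6.04 and 6.42 in the Fc-Eda arrays. The lowest Fc-Eda array, that of replicate 1, was above the highest control array, which came from the same replicate. The difference between Fc-Eda and control was 0.23 in pair 1, 0.88 in pair 2 and 1.24 in pair 3. Its mean was 0.78 with a standard deviation of 0.51 over the pairs, a 1.72-fold higher level with a 95% interval of 1.21 to 2.45 in limma (q = 0.502). Thus the smallest difference of Fgf17 came from the pair that holds the control array standing apart. With pair 1 left out the mean was 1.06 and with pair 3 left out it was 0.55. The spread between pairs was wide for this gene, since 94.9% of all probe sets had a smaller standard deviation of the pair differences.

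Fgf8, which belongs to the same subfamily and is known for its role in the apical ridge of the limb bud, did not share this pattern. Fgf8 (ENSMUSG00000025219_at) was at 6.10, 5.91 and 5.91 in the control arrays and at 5.74, 5.94 and 5.79 in the Fc-Eda arrays. The groups overlapped, and the pairs did not share a direction. The differences were -0.37, 0.022 and -0.12 in pairs 1, 2 and 3. Their mean of -0.16 had a 95% interval of -0.42 to 0.11 in limma (q = 0.751). The lowest value of the difference came from pair 1, and the mean was -0.051 without that pair and -0.25 without pair 2. With each array centred on its median the mean was -0.10.

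Of the subfamily of Fgf9 and Fgf20, Fgf9 was lower in every pair and Fgf20 was not uniform. Fgf9 (ENSMUSG00000021974_at), known from epithelia and mesothelium that signal to mesenchyme in lung and gonad, was at 5.41, 5.46 and 5.52 in the control arrays of replicates 1 to 3 and at 5.09, 5.27 and 5.21 in the Fc-Eda arrays. As deposited, every Fc-Eda array was below every control array. The pair differences of -0.32, -0.19 and -0.31 lay close together, with a standard deviation of 0.073 that was larger than that of 15.7% of all probe sets. The mean difference was -0.27 with a standard error of 0.083 in limma (q = 0.621), or 0.828-fold of the control level with a 95% interval of 0.716 to 0.958. Leaving out a pair gave means from -0.31 to -0.25, with -0.25 without pair 1. With each array centred on its median, the difference of Fgf9 in pair 1 was -0.14, the mean was -0.22 and the groups overlapped.

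Fgf20 (ENSMUSG00000031603_at), a ligand made by hair placodes and tooth signaling centers, was at 7.49, 7.29 and 7.18 in the control arrays and at 7.36, 7.51 and 7.79 in the Fc-Eda arrays. The control array of replicate 1 was above the Fc-Eda array of the same replicate, whereas the Fc-Eda arrays of replicates 2 and 3 were above every control array. The differences were -0.13 in pair 1, 0.22 in pair 2 and 0.61 in pair 3, with a mean of 0.23 and a standard deviation of 0.37 (q = 0.751 in limma). In fold, the mean was 1.18 with a 95% interval of 0.896 to 1.54, which includes no difference. The mean was 0.41 without pair 1 and 0.044 without pair 3. The sign in pair 1 depended on scaling, since it was 0.057 there with each array centred on its median and -0.25 after cyclic loess, while pairs 2 and 3 stayed at 0.20 or above under both.

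The mesenchymal ligands Fgf7 and Fgf10 were slightly higher in every pair, by less than the limma interval could separate from 0. Fgf7 (ENSMUSG00000027208_at), also called keratinocyte growth factor, was at 7.47, 7.62 and 7.74 in the control arrays and at 7.79, 7.65 and 7.83 in the Fc-Eda arrays. These ranges overlapped. Its differences were 0.31 in pair 1, 0.031 in pair 2 and 0.09 in pair 3, with a mean of 0.14 and a 95% interval of -0.096 to 0.39 in limma (q = 0.751). Most of this mean came from pair 1, and without it the mean was 0.061. The value in pair 1 depended on the scaling, with 0.19 after cyclic loess and 0.50 after centring on the array medians, and the mean was 0.095 after quantile normalization and 0.20 after the centring.

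Fgf10 (ENSMUSG00000021732_at) was at 3.90, 4.10 and 3.84 in the control arrays and at 4.15, 4.23 and 3.96 in the Fc-Eda arrays. A filter at the median level, run as an alternative, removed Fgf10 and kept the other 7 genes, and a filter at the 25th percentile kept all 8. The groups overlapped because replicate 3 was lowest and replicate 2 highest in both, while within the pairs the differences were 0.25, 0.12 and 0.12. The mean of 0.17 had a standard deviation of 0.074 over the pairs and a 95% interval of -0.045 to 0.38 in limma (q = 0.751). In pair 1 the difference of Fgf10 was 0.53 after cyclic loess, so that the value in this pair depended on the scaling. The mean was then 0.25, and as deposited without pair 1 it was 0.12.

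Among the receptors, Fgfr2 was lower with Fc-Eda in all pairs. Fgfr2 (ENSMUSG00000030849_at), the receptor for Fgf7 and Fgf10 in epithelium, was at 8.94, 8.74 and 8.92 in the control arrays and at 8.62, 8.65 and 8.59 in the Fc-Eda arrays. Every Fc-Eda array was below every control array, and the range within the Fc-Eda group was 0.055, against 0.20 within the control group. The differences were -0.31, -0.09 and -0.32 in pairs 1, 2 and 3. Their mean of -0.24 had a standard error of 0.092 in limma (q = 0.694), which is 0.846-fold of the control level with a 95% interval of 0.72 to 0.994. The mean was -0.21 without pair 1 and -0.32 without pair 2. Centring each array on its median gave -0.13 in pair 1 and a mean of -0.19, with the groups still apart.

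Fgfr1 (ENSMUSG00000031565_at), a receptor found widely in mesenchyme, was at 8.11, 8.33 and 8.28 in the control arrays and at 8.12, 8.20 and 8.16 in the Fc-Eda arrays. All Fc-Eda arrays lay within the range of the control arrays. The differences were 0.0068, -0.13 and -0.12, with a mean of -0.082 and a 95% interval of -0.29 to 0.13 in limma (q = 0.757). With cyclic loess the difference in pair 1 was -0.11, so that Fgfr1 was then lower in all 3 pairs, and with centring on the median it was 0.19. The mean was -0.13 after quantile normalization and after cyclic loess, and -0.026 with the centring. As deposited it was -0.13 without pair 1 and -0.058 without pair 2.

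**Figure D2:**
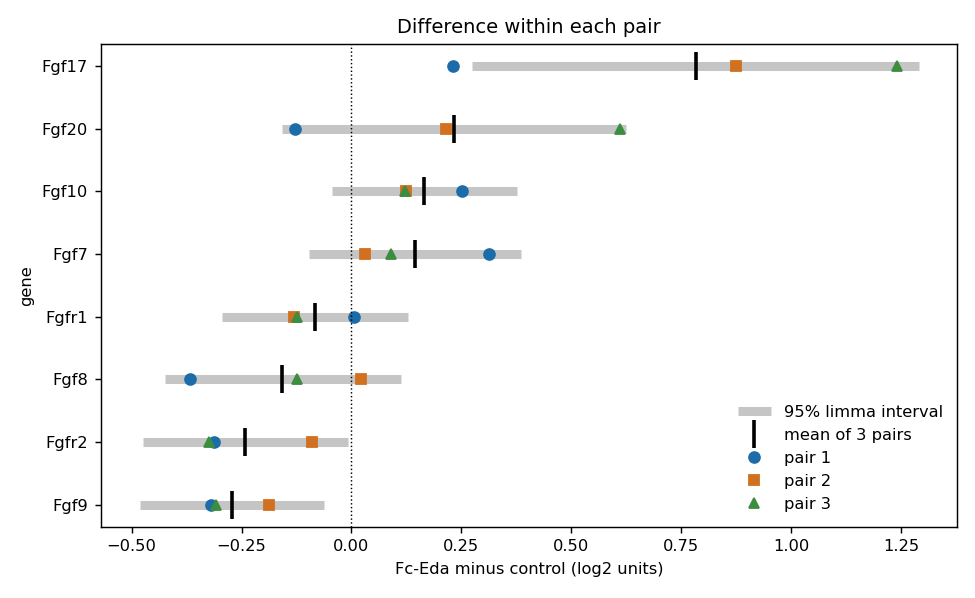
Fc-Eda minus control in log2 units (horizontal axis) for each gene (vertical axis, ordered by the mean). Symbols are the 3 pairs, black ticks their means and grey bars the 95% limma intervals. For the deposited values with all 3 pairs, the intervals of Fgf17, Fgf9 and Fgfr2 do not include 0 and those of the other 5 genes do.

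From the highest to the lowest signed mean difference, the genes were in the order Fgf17, Fgf20, Fgf10, Fgf7, Fgfr1, Fgf8, Fgfr2 and Fgf9. The interval of Fgf17, 0.27 to 1.29, lay above the intervals of Fgfr1, Fgf8, Fgfr2 and Fgf9, and overlapped those of Fgf20, Fgf10 and Fgf7. Neighbours in this order had overlapping intervals throughout, and single differences between neighbours were not tested.

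A constant shift of a whole array cancels when the differences of 2 genes are subtracted within a pair of arrays, whereas a change in the spread of an array, such as that of the control array of replicate 1, does not. This was done for 4 gene pairs of a shared subfamily or of a ligand and its receptor. They were chosen after their values were seen, so the results are a description without a test. The difference of Fgf17 exceeded that of Fgf8 by 0.60, 0.85 and 1.37 in pairs 1, 2 and 3, with a mean of 0.94 ± 0.39 (SD, n = 3). That of Fgf20 exceeded that of Fgf9 by 0.19, 0.40 and 0.92, with a mean of 0.51 ± 0.37. The sign for Fgf20 and Fgf9 in pair 1 turned with the scaling, to -0.010 after cyclic loess and -0.031 after quantile normalization.

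Against Fgfr2, the difference of Fgf7 was higher by 0.63, 0.12 and 0.41, with a mean of 0.39 ± 0.25 (SD, n = 3). The difference of Fgf10 was higher than that of Fgfr2 by 0.56, 0.21 and 0.45, with a mean of 0.41 ± 0.18, and pair 1 gave 0.95 after cyclic loess. In RNA of whole buds, fewer cells of a type and less RNA per cell cannot be told apart. Fgf7 and Fgf10 are typically transcripts of mesenchyme, some of which stays on dissected buds, and the part of carried-over mesenchyme in these values was not tested, since marker genes of mesenchyme and epithelium were not analysed here.

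**Figure D3:**
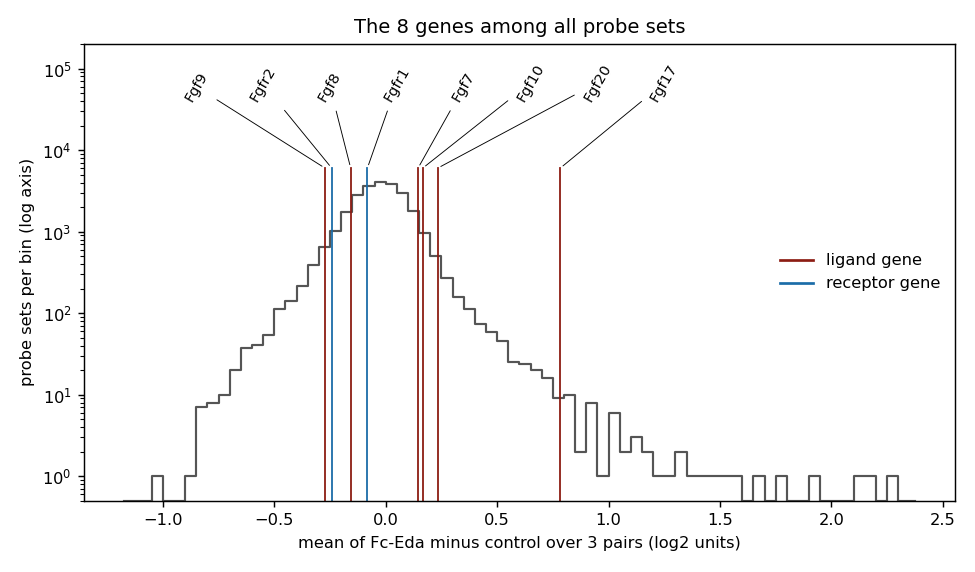
Number of probe sets (vertical axis, log scale) by the mean of Fc-Eda minus control over 3 pairs in log2 units (horizontal axis, bins of 0.05), with the 8 genes marked by vertical lines. Fgf17 lies in the upper tail, with 51 probe sets above it, and the other 7 genes lie between -0.27 and 0.23.

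Among all probe sets, 51 had a larger mean difference than Fgf17, and 1001 had a larger one than Fgf20. Below Fgf9 there were 1382 probe sets with a lower mean difference, and below Fgfr2 there were 1828. When ranked by the p of limma, which also takes the spread into account, 459 probe sets were ahead of Fgf17, 736 ahead of Fgf9 and 1414 ahead of Fgfr2. For Fgf20 the number was 5536, as its pairs differed more among themselves than those of 87.9% of all probe sets.

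The paper listed Fgf17 and Fgf20 as upregulated by Eda, with larger log2 differences than the means given here. Its full list took genes with q under 0.05 in any of its tests. Why the values differ was not tested. The study used IBMT and Cyber-T beside limma, which estimate the expected variance from probe sets of similar level. Written out from their formulas, IBMT called none of the 8 genes, where it called 0.362% of all probe sets in either direction, and the lowest q among the 8 was 0.207, for Fgf17. In the Cyber-T type test Fgf17 was just outside the threshold with q = 0.0531, where 0.624% of all probe sets were called higher. After cyclic loess, a combination chosen after the values were seen, Fgf17 was called by the Cyber-T type test (q = 0.0416), where 0.717% of all probe sets were called higher. The call of Fgf17 thus depended on the test and on the scaling, while its direction was the same in all 3 pairs under every scaling tried. A paired test of each gene on its own variance, left unadjusted, passed 0.05 for Fgf9 alone among the 8 genes, and 2.68% of all probe sets were lower at that threshold.

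**Figure D4:**
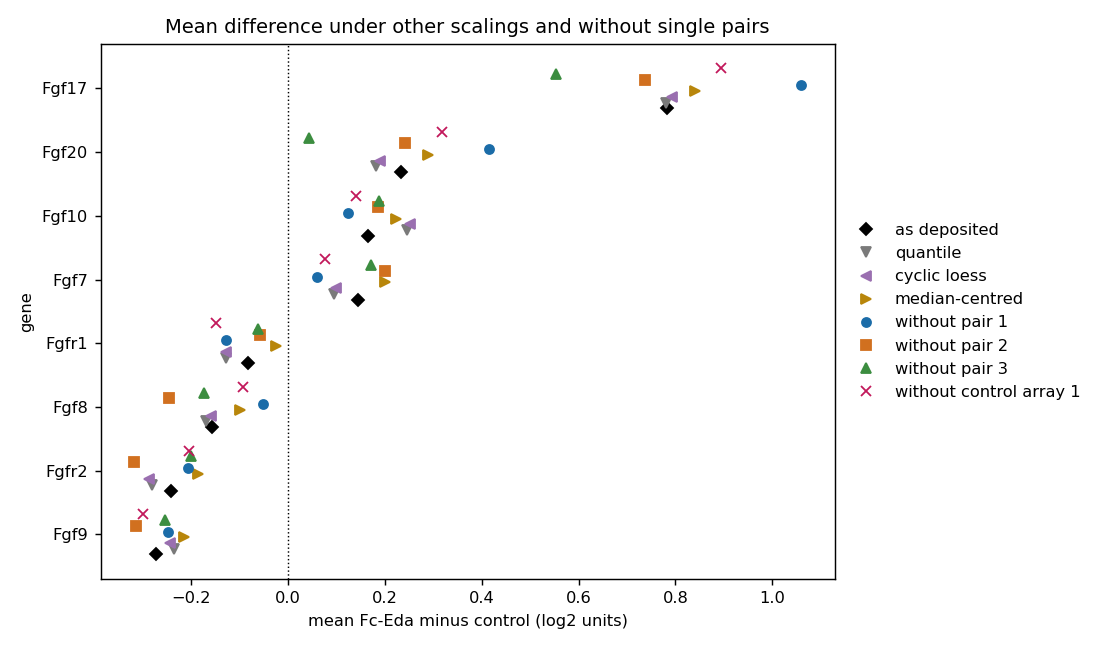
Mean of Fc-Eda minus control in log2 units (horizontal axis) for each gene (vertical axis) as deposited, after 3 other scalings, and with a pair or the control array of replicate 1 left out. Fgf17 ranges from 0.55 to 1.06, the mean of Fgf20 comes down to 0.044 without pair 3, and no mean changes sign.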

How the data were processed

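Mammary buds were profiled on 6 Affymetrix Mouse Exon arrays, 3 per group, with groups and replicate numbers from the sample titles. The values deposited are log2 expression, with 1 row per Ensembl mouse gene identifier, and the submitters' processing notes name RMA; version, probe set definition and genome build are not given in the sources used here. The quartiles differ between arrays. Detection calls were not used. Precision is limited by having 3 arrays a group. The reference table matched 0 identifiers, so the 8 genes are named from the list that defined them; pathway lists, cell type markers and genes of similar pattern were not analysed here. The members and lists were chosen with earlier results of these data known.

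Treatment was fitted over 25949 probe sets in limma 3.58.1 (R 4.3.3) with replicate as a block and default moderation, as the methods pair treatment and control. Storey q-values used a smoothing spline (3 degrees of freedom) on lambda between 0.05 and 0.95, spaced by 0.05. IBMT (loess span 0.75) and a Cyber-T type test (50 probe sets on each side, prior weight 10) were written out. Like limma, they were run on simulated data with known changes. There only their mean differences were held to a limit, so their calls were not checked. Same-numbered arrays share embryos, and their deviations correlated with r = 0.079, 0.29 and 0.29. Alternatives were other tests, adjustments, scalings, filters on level and leaving out each pair. All 8 genes are named, by rule, with every value.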

Additional observations from a re-analysis of the deposited data

How the results depend on the processing

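Limma with the replicate block called 0 of the 8 genes higher and 0 lower at q under 0.05. Without the block it also called 0 of them, and q was 0.553 for Fgf17 and 0.962 for Fgf9. Of 19 alternatives, 10 leave the mean difference as it is by construction, and the rest gave 7 distinct sets of means (the 3 scalings, each pair left out, and the control array of replicate 1 left out), in which each gene kept its sign. The filter at the median level removed Fgf10. A call was added by 2 alternatives. The Cyber-T type test after cyclic loess, chosen after seeing the data, called 1 gene higher, Fgf17 with 0.792, and the paired test of each gene on its own variance, without adjustment, called 1 lower, Fgf9 with -0.272. The cause was not tested. Across its alternatives the mean of Fgf17 ranged from 0.553 to 1.06, with q from 0.0416 to 0.918, and that of Fgf9 from -0.314 to -0.215. Leaving out each pair in turn, Fgf20 ranged from 0.044 to 0.414, Fgf7 from 0.0607 to 0.201, Fgf8 from -0.246 to -0.0509 and Fgfr1 from -0.127 to -0.0579, and no gene was called. Centring each array on its median gave -0.0257 for Fgfr1, -0.0998 for Fgf8 and 0.201 for Fgf7. Without the control array of replicate 1 and without the block, an alternative chosen after seeing the data, Fgf17 was at 0.893, Fgf20 at 0.317, Fgf7 at 0.0761, Fgf8 at -0.0932 and Fgfr1 at -0.148.

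Centring each array on its median moved the median difference over all probe sets in pair 1 from -0.074 to 0.11. That median was 0.012 after quantile normalization and 0.0054 after cyclic loess. Over all probe sets limma called 0, and 708 were higher and 864 lower when p under 0.05 was left unadjusted. Limma with trend and robust moderation called 90 higher and 6 lower, IBMT 88 and 6, and limma above the median level 85 and 6. With the Cyber-T type test there were 162 higher and 31 lower, as with a call in any of the 3 tests. Centring gave 56 and 1, no block 3 and 0, and that unadjusted paired test 802 and 696. Which dim probe sets lie at background is not known, so a low level such as that of Fgf10 cannot be read as expression or its absence. Pathway gene counts were not run, because the identifiers have no names here.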
